A study of Mus musculus with 13 samples.

Results

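Desmosomes are the spot-like junctions that fasten neighbouring epithelial cells to one another, and 10 genes of that junction were followed here through mouse NUT carcinoma tumors. They were taken as a named list from the 55332 genes with values in the deposited count table: the desmogleins Dsg1a, Dsg2 and Dsg3, the desmocollins Dsc1, Dsc2 and Dsc3, the armadillo proteins Jup, Pkp1 and Pkp3, and the plakin Dsp. The 13 tumors came from mice carrying 1 copy of the NUT carcinoma translocator allele (NCT +/-), in which Cre brings about a chromosomal exchange, so every group carries both the translocator and a Cre. In the oral tumors Cre is driven by a keratin promoter, KRT14-Cre in the labels of the 4 Sox2 WT tumors. The labels of the 2 Sox2 KO tumors read KRT4Cre, whereas the study names KRT14-Cre for oral tumors of both genotypes. The 7 pancreatic tumors carry Pdx1-Cre (4 Sox2 WT, 3 Sox2 KO). KO tumors additionally had both copies of Sox2 floxed, and the same Cre removes them, so tumor formation and Sox2 loss share their driver. Age and sex are not given in the labels, and nothing in them says whether tumors came from separate animals, so p-values measure the spread between these tumors.

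In a desmosome the desmogleins and desmocollins, which are cadherins, bind their counterparts on the adjoining cell. Plakoglobin (Jup) and the plakophilins (Pkp genes) hold the cadherin tails inside the cell, and desmoplakin (Dsp) ties that plaque to keratin filaments, which is what lets stratified epithelia such as oral mucosa and skin resist pulling. In skin the cadherins are layered: Dsg3 and Dsc3 are found in lower layers, and Dsg1 and Dsc1 in the differentiating upper layers. Dsg2 is the form typical of simple epithelia such as gland and duct.

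Sequencing depth ran from 11735315 estimated counts (Sox2 KO oral tumor 1) to 120482829 (Sox2 KO pancreatic tumor 1). Within each tissue depth was split by genotype, in opposite directions. Oral KO tumors held 11735315 and 20432164 counts, against 29394258 to 40420228 in WT oral tumors. Pancreatic KO tumors held 89562790 to 120482829, against 40964533 to 46134830 in WT pancreatic tumors. Depth and Sox2 genotype therefore go together in every KO comparison. Sox2 had 410 to 680 counts in the 4 WT oral tumors and 1111 to 1487 in the 4 WT pancreatic tumors, against 0 and 1 counts in the oral KO tumors and 0, 1 and 2 in the pancreatic KO tumors. The pancreatic label was checked with Pdx1, a pancreatic progenitor factor, which was at 0 in all 6 oral tumors and between 1.46 and 11.6 CPM (counts scaled to library size) in the pancreatic ones. The 5 epithelial markers were expressed in every tumor. Libraries were not alike in other tissue RNA. The summed level of 10 skeletal muscle genes was 2880 to 5236 CPM in the 2 oral KO tumors, 566 CPM in WT oral tumor 4, at most 8.87 CPM in the other WT oral tumors and at most 5.36 CPM in the pancreatic tumors. Protein-coding genes held 59.5% of the counts of oral KO tumor 1 and 84.5% to 91.7% of the counts of the others.

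Among the 10 genes, RefSeq promoter sequence was at hand for Dsp and Jup, a pair that differed between tissues by -1.34 and -1.27 on the log2 scale (WT oral over WT pancreatic). Their 250 bases before the annotated start site are given 5′ to 3′ from build GRCm38.p6 so that the 2 windows can be compared, Dsp from the plus strand at chr13:38151044-38151293 and Jup from the minus strand at chr11:100397791-100398040. Capitals mark GC boxes (GGGCGG on either strand) and CCAAT boxes (CCAAT on either strand), which do not overlap one another here.
Dsp: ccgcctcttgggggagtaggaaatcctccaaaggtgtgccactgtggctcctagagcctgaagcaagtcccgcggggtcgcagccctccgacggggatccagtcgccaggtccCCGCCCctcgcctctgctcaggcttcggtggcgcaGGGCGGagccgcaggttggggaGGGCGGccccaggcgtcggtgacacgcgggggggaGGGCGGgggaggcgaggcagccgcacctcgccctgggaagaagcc
Jup: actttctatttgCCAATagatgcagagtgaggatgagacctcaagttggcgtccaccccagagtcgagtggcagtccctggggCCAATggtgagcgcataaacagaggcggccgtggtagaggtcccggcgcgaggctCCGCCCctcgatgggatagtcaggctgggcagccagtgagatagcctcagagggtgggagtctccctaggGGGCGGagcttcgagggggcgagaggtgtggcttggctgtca
The Dsp window was 72.4% G and C and held 4 GC boxes, 137, 102, 80 and 45 bases before the start, and no CCAAT box. The Jup window was 62.0% G and C and held 2 GC boxes, 112 and 42 bases before the start, and 2 CCAAT boxes, 238 and 167 bases before it. Distances are from the RefSeq start that bounds each window, which for Jup is not the GENCODE gene boundary at 100397763 given below. A GC box lay in 32.7% and a CCAAT box in 33.8% of the 32851 windows of this length in the table. Neither window held the letters AACCNGTT (1.79% of all windows), TGANTCA (6.75%), CANNTG (66.2%) or ACAANG (36.3%), searched on both strands as core motifs of GRHL, AP-1, E-box and SOX factors. These matches are letters in a window and not measured binding.

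All 10 genes were detected in each tumor, together making up 0.341% (WT oral tumor 3) to 1.08% (WT pancreatic tumor 2) of all counts. Per kilobase of exon and scaled to a common total (TPM), Dsp led in WT oral tumors at 325 ± 152 TPM (SD, n = 4) and in WT pancreatic tumors at 595 ± 103 TPM (SD, n = 4). Below Dsp in the WT oral tumors came Dsc3 (269 ± 89.96 TPM), Pkp1 (259 ± 67.6), Dsg1a (226 ± 119), Dsg3 (201 ± 72.9), Dsc1 (196 ± 101), Dsc2 (183 ± 93.5), Jup (170.2 ± 81.6), Pkp3 (92.6 ± 13.4) and Dsg2 (71.6 ± 30.9). Each of these neighbours overlapped the next in its range over tumors. In the WT pancreatic tumors the order was Dsp, Pkp1 (413 ± 126 TPM), Dsg3 (341 ± 40.3), Dsc2 (332 ± 78.9), Jup (299 ± 46.0), Pkp3 (115 ± 23.2), Dsc3 (99.6 ± 17.6), Dsg1a (57.6 ± 23.7), Dsg2 (46.6 ± 7.54) and Dsc1 (32.1 ± 24.5), and only the step from Jup down to Pkp3 separated 2 neighbours whose ranges did not overlap. Dsc1, a desmocollin of upper skin layers, was thus the lowest of the 10 in pancreatic tumors. In the 3 pancreatic KO tumors Dsc1 stood at 6.06 ± 2.27 TPM (SD, n = 3), below Dsg1a at 24.9 ± 6.17 TPM without overlap. The place of Jup depends on the length used: with its longest transcript in place of the exon union its mean was 299 TPM in WT oral and 533 TPM in WT pancreatic tumors.

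**Figure D1:**
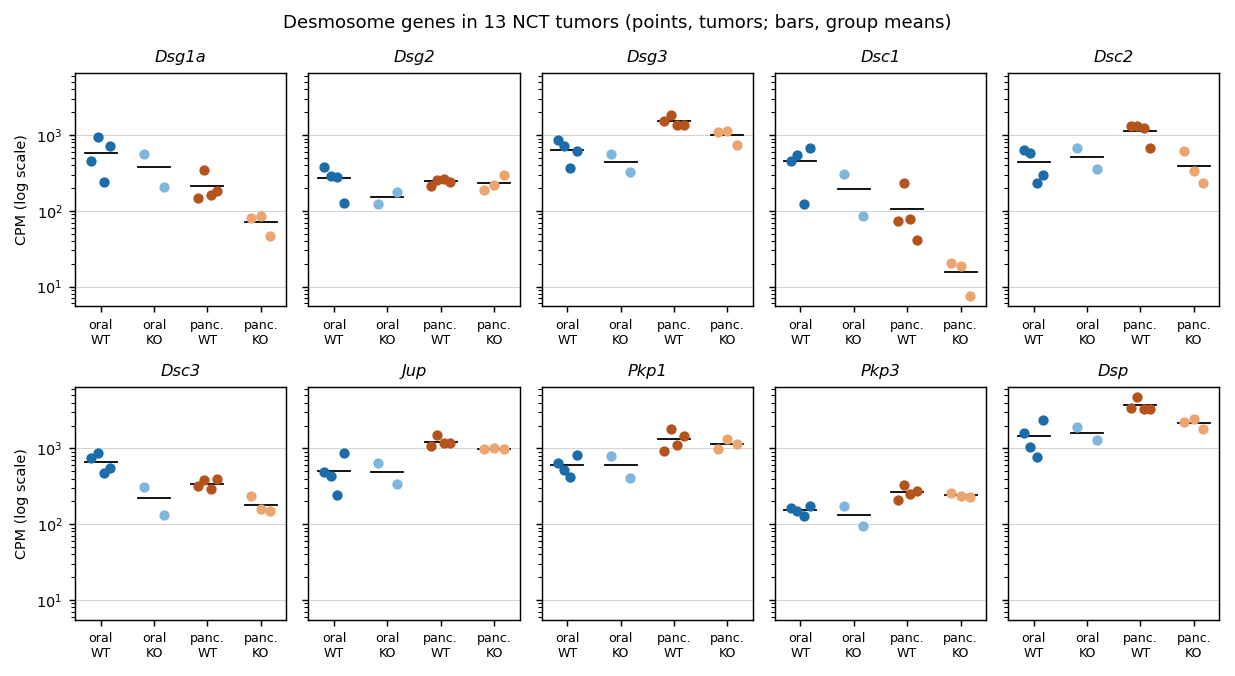
CPM of each of the 10 desmosome genes (log scale) in each tumor, by tissue and Sox2 genotype, with points for tumors, bars for group means and panc. for pancreatic. Dsg1a and Dsc1 are lowest in the pancreatic KO tumors (Dsc1 at 7.55 to 20.6 CPM), whereas Dsp, Jup, Pkp1, Dsg3 and Dsc2 are lower in every WT oral tumor than in every WT pancreatic tumor.

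Shares within each family, taken inside a tumor, are free of library scaling. Dsg1a made up 36.3% ± 10.1 (SD, n = 4) of desmoglein transcript per kilobase in WT oral tumors and 10.6% ± 2.45 (SD, n = 4) in WT pancreatic tumors. Dsg3 took 33.9% ± 5.12 and 64.9% ± 3.38 in the same groups. Dsg2 held 13.3% and Dsg1b 12.2% in WT oral tumors, and 8.93% and 15.3% in WT pancreatic tumors. No WT oral tumor overlapped a WT pancreatic tumor in the share of Dsg1a or of Dsg3. Among the desmocollins, Dsc2 held 27.7% ± 6.22 in WT oral and 71.1% ± 7.59 in WT pancreatic tumors, and Dsc3 43.3% (34.4% to 56.3%) and 22.4% (17.6% to 34.3%). In the 2 oral KO tumors Dsc2 held 52.2% and 62.2%, above the highest WT oral tumor (34.3%), and Dsc3 held 22.1% and 23.2%, below the lowest WT oral tumor (34.4%). Among Pkp1, Pkp2 and Pkp3 (Pkp4 was left out of this family) the shares lay closer together: Pkp1 held 72.9% ± 2.83, 75.0% ± 1.91, 77.1% ± 2.48 and 76.6% ± 3.75 in WT oral, KO oral, WT pancreatic and KO pancreatic tumors, and Pkp2 at most 2.53% in any tumor, with Pkp3 as the remainder of the 3.

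**Figure D2:**
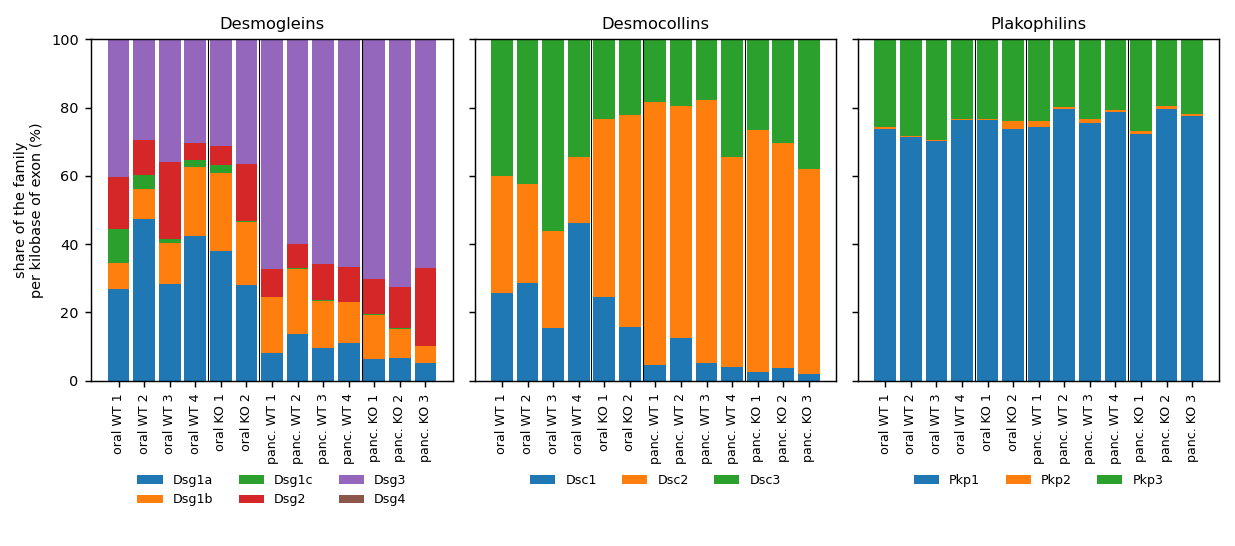
Share of each family per kilobase of exon (percent, stacked to 100) in each tumor for desmogleins, desmocollins and plakophilins, with vertical lines between groups and panc. for pancreatic. Dsg3 and Dsc2 fill most of their families in pancreatic tumors, Dsc2 is at 52.2% and 62.2% in the oral KO tumors, and Pkp1 makes up 70.1% to 79.7% of the sum of Pkp1, Pkp2 and Pkp3, with Pkp4 left out.

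The clearest differences lay between WT oral and WT pancreatic tumors, a comparison in which tissue and Cre driver cannot be told apart. Of the 10 genes, 7 were called in edgeR's quasi-likelihood test, a call meaning a log2 fold change beyond 1 in size with an adjusted p below 0.05: Dsg1a and Dsc1 were higher in oral tumors, and Dsg3, Dsc2, Dsp, Jup and Pkp1 lower. Over all 23164 genes tested, 9.3% were called higher and 7.24% lower. Dsc3 (higher) and Pkp3 (lower) passed the adjusted p but not the fold change, and Dsg2 passed neither. The median log2 fold change of the 10 was -0.95 and that of all genes 0.0046. In bulk tumors fewer epithelial cells and less RNA per cell cannot be told apart, and the other tissue RNA moved with this comparison: the 5 epithelial markers summed to 3778 to 7347 CPM in WT oral and 7816 to 13935 CPM in WT pancreatic tumors, and the 8 fibroblast markers to 8844 to 19209 and 1204 to 2340 CPM, all 8 of them detected in each group. Their part in these results was not tested.

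The desmogleins went in opposite directions. Dsg1a (chr18:20310811-20343350, plus strand, GRCm38 annotation) is the upper-layer desmoglein of skin and the target of antibodies in pemphigus foliaceus. Dsg1a measured 461, 929, 239.9 and 712 CPM in WT oral tumors 1 to 4 and 147, 347, 162 and 185 CPM in WT pancreatic tumors 1 to 4. Oral tumor 3 fell below pancreatic tumor 2, so the groups overlapped, with a log2 fold change of 1.49 (SE 0.43, adjusted p = 0.0358). That call did not last when any of WT oral tumor 2 (adjusted p = 0.088), WT oral tumor 4 (0.0525) or WT pancreatic tumors 1 (0.0896), 3 (0.0957) or 4 (0.0801) was left out. Dsg1a shares 41.4% of its 31-base stretches with other genes, and 38% with its copy Dsg1b, so counts can be split between copies. With Dsg1a, Dsg1b and Dsg1c summed the log2 fold change was 0.86 (adjusted p = 0.149), not called. Dsg3 (chr18:20510274-20547459, plus strand) is the lower-layer desmoglein of skin and the target in pemphigus vulgaris. Dsg3 read 849, 709, 368 and 622 CPM in oral against 1517, 1859.5, 1376 and 1361 CPM in pancreatic tumors. No oral tumor reached a pancreatic one (log2 fold change -1.26, SE 0.24, adjusted p = 0.0071), and the call held without any 1 of the 8 tumors. Dsg2 (chr18:20558074-20604521, plus strand), the desmoglein of simple epithelia, overlapped between tissues: 379, 289, 278 and 127 CPM in oral and 215, 257, 263 and 243 CPM in pancreatic tumors, a log2 fold change of 0.14 (SE 0.28, adjusted p = 0.764).

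All 3 desmocollins differed, again not in 1 direction. Dsc1 (chr18:20084184-20114871, minus strand) was at 450.4, 553, 121 and 684 CPM in WT oral and 74.1, 230.0, 77.3 and 41.3 CPM in WT pancreatic tumors. Its log2 fold change was 2.11 (SE 0.63, adjusted p = 0.0419), with WT oral tumor 3 inside the pancreatic range. The call was lost without any of WT oral tumors 1 (adjusted p = 0.0686), 2 (0.0887) or 4 (0.064) or WT pancreatic tumors 1 (0.103), 3 (0.107) or 4 (0.0802). Dsc2 (chr18:20030633-20059554, minus strand), the most widely expressed desmocollin, was at 628, 584, 229 and 297 CPM in oral and 1304, 1305, 1229.6 and 683 CPM in pancreatic tumors, where tumor 4 stood apart from its group but above every oral tumor. The log2 fold change was -1.38 (SE 0.36, adjusted p = 0.0248), and it was not called without WT pancreatic tumor 1 (adjusted p = 0.0597), 2 (0.0593) or 3 (0.0624). Dsc3 (chr18:19960930-20002351, minus strand), a desmocollin of basal layers, was higher in every WT oral tumor (750.2, 877, 469 and 544 CPM) than in every WT pancreatic tumor (315, 382, 287 and 389 CPM). Its log2 fold change of 0.95 (SE 0.21, adjusted p = 0.0116) lay just under the fold threshold, and passed it without WT oral tumor 3 (1.08) or 4 (1.04) or WT pancreatic tumor 2 (1.00) or 4 (1.03).

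The 4 plaque genes were lower in each WT oral tumor than in each WT pancreatic tumor. Plakoglobin, Jup (chr11:100368958-100397763, minus strand), which serves both desmosomes and adherens junctions, was at 489.8, 432, 239 and 867 CPM in oral and 1081, 1479, 1179 and 1172 CPM in pancreatic tumors (log2 fold change -1.27, SE 0.34, adjusted p = 0.0256). Pkp1 (chr1:135871395-135919207, minus strand), the main plakophilin of stratified epithelium, was at 647, 525, 422 and 805 CPM against 909.6, 1814, 1122 and 1435 CPM (-1.13, SE 0.26, adjusted p = 0.0137). Pkp3 (chr7:141078218-141090510, plus strand), a plakophilin of most epithelia, was at 162, 149.7, 127 and 176 CPM against 211, 325, 249 and 270.5 CPM, a difference of -0.77 (SE 0.15, adjusted p = 0.0080) that missed the fold threshold. Desmoplakin, Dsp (chr13:38151294-38198577, plus strand), was at 1603, 1039, 759 and 2396 CPM against 3369, 4747, 3356 and 3263 CPM (-1.34, SE 0.34, adjusted p = 0.0204). In each of the 4 genes the highest WT oral tumor, number 4, stayed below the lowest WT pancreatic tumor. Over the 10 genes, 6 had every oral tumor below every pancreatic tumor (13.9% of all genes tested) and 1, Dsc3, had every oral tumor above (13.8%). The Jup call was lost without WT oral tumor 1 (adjusted p = 0.0587) or 2 (0.0688) or WT pancreatic tumor 2 (0.0632) or 3 (0.0577), and the Dsp call without WT oral tumor 2 (0.0564) or WT pancreatic tumor 2 (0.0527). Pkp1 kept its adjusted p but fell inside the fold threshold without WT oral tumor 3 (-0.99) or WT pancreatic tumor 2 (-0.94). The number of the 10 genes called was 3 without WT oral tumor 2 or WT pancreatic tumor 3, and 4 without WT pancreatic tumor 1 or 2.

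**Figure D3:**
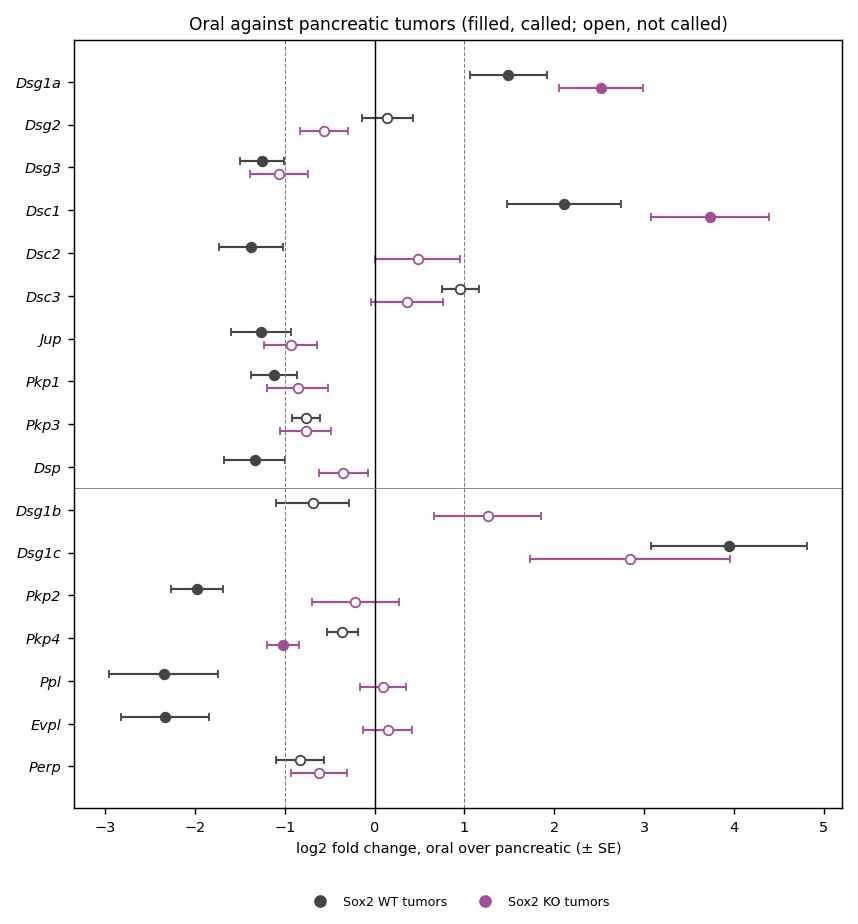
Log2 fold change of oral over pancreatic tumors (x axis, ± SE) for the 10 desmosome genes and, below the line, 7 other desmosome genes, in Sox2 WT and Sox2 KO tumors, with filled points for called genes and dashed lines at -1 and 1. Dsg1a and Dsc1 lie on the oral side in both genotypes (1.49 and 2.52, 2.11 and 3.74), and Ppl and Evpl lie near -2.3 in WT tumors and near 0 in KO tumors.

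In pancreatic tumors the question was whether desmosome genes differ once Sox2 is deleted. All 10 estimates were below 0, and 7 of the 10 genes were lower in each of the 3 KO tumors than in each of the 4 WT tumors, where 7.93% of the 24653 genes tested were so placed (7.56% the other way). The 10 genes were measured in the same tumors, so these counts are not of independent results. None of the 10 was called by edgeR. Few genes were called at all in this comparison: 0.337% higher and 0.292% lower. DESeq2, the tool of the study's methods, called 3 of the 10 (Dsg1a, Dsc1 and Dsc2), all lower, against 2.92% of all genes called lower. The median log2 fold change of the 10 was -0.72 against 0.022 for all genes.

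Among the cadherins, Dsc1 was at 20.6, 18.7 and 7.55 CPM in pancreatic KO tumors 1 to 3, all below the lowest WT tumor (41.3 CPM). That is a log2 fold change of -2.77 (SE 0.67), with an adjusted p of 0.114 in edgeR and 0.000164 in DESeq2. Dsg1a was at 80.6, 84.6 and 47.2 CPM, again below every WT tumor (lowest 147 CPM), with a log2 fold change of -1.58 (SE 0.35) and an adjusted p of 0.0965 in edgeR and 0.000863 in DESeq2. Summing the 3 Dsg1 copies gave -1.56 (adjusted p = 0.123). Dsc2 was at 615, 336 and 229.7 CPM against a lowest WT tumor of 683 CPM (-1.54, SE 0.38, adjusted p = 0.115 in edgeR and 0.00288 in DESeq2). Dsc3 was at 237, 159 and 148 CPM against a lowest WT tumor of 287 CPM (-0.93, SE 0.19, adjusted p = 0.0768), and without pancreatic KO tumor 1 it was called at -1.17 (adjusted p = 0.0486). Dsg3 was at 1096, 1125 and 741 CPM against a lowest WT tumor of 1361 CPM (-0.65, SE 0.20, adjusted p = 0.167). Dsg2, at 189, 219 and 301 CPM, spanned the WT range, and its estimate of -0.07 (SE 0.17, adjusted p = 0.883) turned to 0.07 without pancreatic KO tumor 1.

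Of the plaque genes, Dsp was at 2199.7, 2442 and 1827 CPM, each below the lowest WT tumor of 3263 CPM (log2 fold change -0.79, SE 0.19, adjusted p = 0.109). Jup, at 983, 1012 and 980.0 CPM, also lay below all WT tumors (lowest 1081 CPM), with an estimate of only -0.32 (SE 0.14, adjusted p = 0.315). Pkp1 (970.1, 1329 and 1137 CPM) and Pkp3 (258, 235 and 229 CPM) overlapped the WT tumors, with estimates of -0.22 (SE 0.24, adjusted p = 0.711) and -0.15 (SE 0.15, adjusted p = 0.678). Pancreatic KO tumor 3 was the lowest of the 7 pancreatic tumors in 7 of the 10 genes, and the median of its 10 differences from the WT mean was -1.01 on the log2 scale, against -0.49 and -0.50 in KO tumors 1 and 2. It also held 296 CPM of 9 acinar genes, against at most 16.3 CPM in any other pancreatic tumor. The 5 epithelial markers overlapped between genotypes, summing to 11062 to 12553 CPM in KO and 7816 to 13935 CPM in WT tumors. Krt5 alone gave 6496 to 6924 CPM of that sum in KO tumors. Sums of 14 epithelial regulators (2820 to 3590 against 3792 to 4704 CPM) and 9 adherens junction genes (3363 to 3631 against 3813 to 4189 CPM) were lower in every KO tumor. So were the sums of 10 suprabasal keratins (1864 to 4492 against 7751 to 12823 CPM) and 8 other desmosome genes (1620 to 2110 against 2969 to 4140 CPM). Those of tight and gap junction genes and of basal and simple keratins overlapped. The 12 cornified envelope genes summed to 209.9 to 1849 CPM in KO and 1572 to 4418 CPM in WT tumors, and the 8 fibroblast markers to 2274 to 3854 and 1204 to 2340 CPM. Their part in the estimates was not tested.

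In oral tumors the same question was asked of 2 KO and 4 WT tumors. None of the 10 genes was called by edgeR, 1 (Dsc3) had an unadjusted p under 0.05, and DESeq2 called that gene alone. Over the 22342 genes tested, edgeR called 8.81% higher and 2.89% lower, and DESeq2 called 6.45% lower. Estimates lay on both sides of 0, 4 above and 6 below, with a median of -0.17 against -0.0030 for all genes. Restricting the table to protein-coding genes moved the median estimate of all genes in this comparison by 0.19 on the log2 scale and put Pkp3 at 0.17.

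Dsc3 was at 309 and 130.2 CPM in oral KO tumors 1 and 2, both below the lowest WT oral tumor (469 CPM), and was the only one of the 10 genes so placed (29.3% of all genes tested were, and 20.2% were placed the other way). Its log2 fold change was -1.39 (SE 0.43), with an unadjusted p of 0.0127 and an adjusted p of 0.0666 in edgeR and of 0.0065 in DESeq2. Without oral KO tumor 2 the estimate was -0.88 (adjusted p = 0.239). Dsc2, its neighbour, was at 679 and 357 CPM, 1 above and 1 within the WT range (229 to 628 CPM), with an estimate of 0.45 (SE 0.47, adjusted p = 0.515). Dsc1 was at 307 and 86.1 CPM (-0.99, SE 0.76, adjusted p = 0.38), Dsg1a at 559 and 205 CPM (-0.41, SE 0.60, adjusted p = 0.654), Dsg3 at 564 and 327 CPM (-0.32, SE 0.37, adjusted p = 0.561) and Dsg2 at 123 and 179.6 CPM (-0.65, SE 0.42, adjusted p = 0.298). In the plaque, Dsp was at 1904 and 1291 CPM (0.33, SE 0.45, adjusted p = 0.627), Jup at 636 and 339.9 CPM (0.14, SE 0.50, adjusted p = 0.86), Pkp1 at 791 and 401 CPM (0.18, SE 0.36, adjusted p = 0.738) and Pkp3 at 173 and 93.4 CPM (-0.02, SE 0.28, adjusted p = 0.974).

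The 2 oral KO tumors were not alike. In CPM, oral KO tumor 2 lay below the WT mean in 10 of the 10 genes, with a median difference of -0.62 on the log2 scale. Oral KO tumor 1 did so in 4 of the 10, with a median of 0.14. That order depends on the scaling, since in TPM each of the 10 genes was lower in KO tumor 1 than in KO tumor 2. Dsp was at 105 and 326 TPM, Jup at 52.5 and 129 TPM and Pkp1 at 83.6 and 194 TPM in KO tumors 1 and 2. Leaving out tumor 1 turned the estimates of Dsc2, Jup and Pkp1 below 0, and leaving out tumor 2 turned those of Dsg1a, Dsg3 and Pkp3 above 0. WT oral tumor 3 was itself low, with a median of -0.76 and 9 of the 10 genes below the WT mean. Epithelial markers summed to 2763 and 3605 CPM in the KO tumors, both below the lowest WT oral tumor (3778 CPM), beside the muscle RNA given above. Of the 5 markers 2, Krt5 and Epcam, were lower in both KO tumors than in every WT oral tumor, as were 29.3% of all genes tested. Krt14, Trp63 and Cdh1 overlapped.

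**Figure D4:**
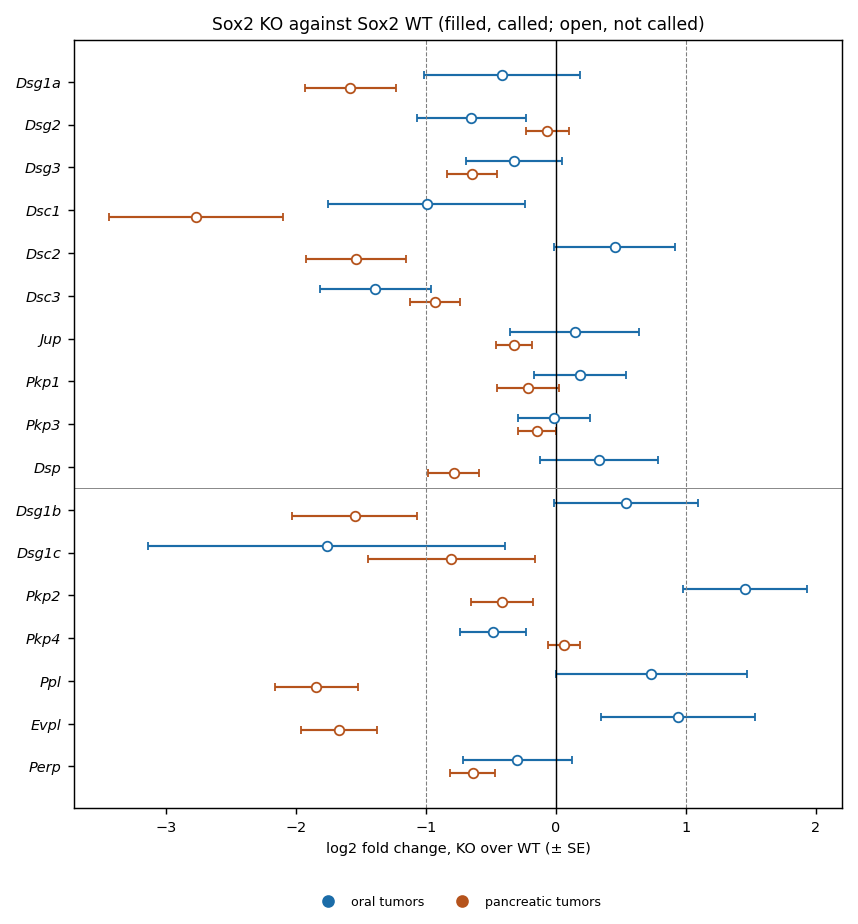
Log2 fold change of Sox2 KO over Sox2 WT tumors (x axis, ± SE) for the 10 desmosome genes and, below the line, 7 other desmosome genes, in oral and pancreatic tumors, with open points because no gene was called and dashed lines at -1 and 1. Pancreatic estimates of the 10 genes run from -2.77 (Dsc1) to -0.07 (Dsg2), and oral estimates fall on both sides of 0.

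Whether the deletion acted differently in the 2 tissues was tested directly as the pancreatic KO effect minus the oral KO effect over all 13 tumors. None of the 10 genes was called by edgeR, 1 had an unadjusted p under 0.05, and edgeR called 4.85% of all 25836 genes higher and 7.41% lower. That gene was Dsc2, with a difference of -1.90 (SE 0.64, unadjusted p = 0.0119, adjusted p = 0.0629). DESeq2 called Dsc2 and no other of the 10, against 10.9% of all genes called lower. Dsc2 was also called by edgeR without WT pancreatic tumor 4 (-2.05, adjusted p = 0.0432) or pancreatic KO tumor 1 (-2.40, adjusted p = 0.0378). Without oral KO tumor 1 it was at -1.33 (adjusted p = 0.232). Dsp was at -1.04 (SE 0.49, adjusted p = 0.153), and was called without WT oral tumor 4 (-1.40, adjusted p = 0.0352). Dsc1 (-1.67, SE 1.02, adjusted p = 0.265) and Dsg1a (-1.08, SE 0.71, adjusted p = 0.305) had large estimates with wide errors, and Pkp3 (-0.05, SE 0.30, adjusted p = 0.924) was near 0. The oral and pancreatic comparisons with the WT tumors use the same WT tumors as the comparison between tissues.

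Between KO tumors of the 2 tissues, 2 of the 10 genes were called, both higher in oral tumors, where 14.6% of the 24787 genes tested were called higher and 10.7% lower. Dsc1 was at 307 and 86.1 CPM in oral KO against 7.55 to 20.6 CPM in pancreatic KO tumors (log2 fold change 3.74, SE 0.66, adjusted p = 0.0136). Dsg1a was at 559 and 205 CPM against 47.2 to 84.6 CPM (2.52, SE 0.47, adjusted p = 0.0151), and with the 3 Dsg1 copies summed the estimate was 2.03 (adjusted p = 0.0343). Both calls held without any 1 of the 5 tumors. These were also the 2 genes with every oral tumor above every pancreatic tumor (27.7% of all genes), and 5 genes had every oral tumor below (34.5%). Dsg3 missed the call at -1.06 (SE 0.33, adjusted p = 0.0511), Jup at -0.94 (SE 0.30, adjusted p = 0.0566). Without oral KO tumor 1, which leaves a lone oral KO tumor, Dsg3 was at -1.47, Jup at -1.41, Pkp1 at -1.38 and Pkp3 at -1.23, all lower in oral tumors. Protein-coding genes alone moved the median estimate of all genes by 0.28 here.

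Ratios between family members within a tumor do not depend on depth or scaling, and 5 were tested by exact two-sided permutation over tumors in 3 comparisons, 15 tests in all. The log2 ratio of Dsc2 to Dsc3 counts was -0.69 ± 0.34 in WT oral tumors (SD, n = 4) and 1.68 ± 0.60 in WT pancreatic tumors (SD, n = 4), a difference of -2.37 with no overlap (exact permutation p = 0.0286, the smallest that 4 against 4 tumors allow, Benjamini-Hochberg adjusted p = 0.143). Dsg1a to Dsg3 was -0.23 ± 0.62 against -2.94 ± 0.40 (difference 2.71) and Dsg2 to Dsg3 -1.29 ± 0.78 against -2.64 ± 0.23 (difference 1.35), both with the same exact permutation p and adjusted p. In the oral KO tumors Dsc2 to Dsc3 was 1.14 and 1.46, both above the 4 WT oral tumors (-1.03 to -0.26), a difference of 1.98 (exact permutation p = 0.0667, the smallest that 2 against 4 tumors allow, adjusted p = 0.184). In pancreatic KO tumors Dsg1a to Dsg3 was -3.82 ± 0.13 (SD, n = 3), 0.89 below WT on average (exact permutation p = 0.0571, adjusted p = 0.184). The ratio of Pkp1 to Pkp3 stayed between 1.73 and 2.50 in all 13 tumors. None of the 15 passed the adjusted threshold. The oral KO tests could not pass it, since their smallest possible exact permutation p is 0.0667. The others could pass only if most of them stood at their smallest p, so nothing is concluded from this outcome.

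Of 8 further desmosome genes, the plakins Ppl (periplakin) and Evpl (envoplakin), which also line the cornified envelope, had the largest estimates in WT pancreatic against KO pancreatic tumors. In WT pancreatic tumors Ppl was at 1246, 832, 820.2 and 488 CPM, against 96.6, 144, 46.2 and 377 CPM in WT oral and 287, 237 and 192 CPM in KO pancreatic tumors. Evpl was at 694, 422, 506 and 311 CPM, 72.1, 88.2, 34.5 and 189 CPM, and 186, 153 and 122 CPM in the same order. Both were called lower in WT oral than WT pancreatic tumors (Ppl -2.35, SE 0.61, adjusted p = 0.0242; Evpl -2.33, SE 0.49, adjusted p = 0.0109), and every KO pancreatic tumor lay below every WT pancreatic tumor for both. With the deletion in pancreatic tumors Ppl was at -1.85 (SE 0.32, adjusted p = 0.0558) and Evpl at -1.67 (SE 0.29, adjusted p = 0.0568) in edgeR, just outside the threshold, with adjusted p of 4.58e-06 and 1.17e-05 in DESeq2. Without WT pancreatic tumor 4 edgeR called both (adjusted p = 0.0198 and 0.0286). The Ppl call between tissues was lost without WT oral tumor 1 (adjusted p = 0.0571) or 2 (0.0655) or WT pancreatic tumor 1 (0.0599) or 3 (0.0525). The oral KO estimates were above 0 (Ppl 0.73, SE 0.73, adjusted p = 0.505; Evpl 0.94, SE 0.59, adjusted p = 0.293). The difference between tissues in the KO effect was called for Evpl (-2.53, SE 0.69, adjusted p = 0.0334) and not for Ppl (-2.50, SE 0.83, adjusted p = 0.061). The Evpl difference lost its call without WT oral tumor 1 (adjusted p = 0.0528) or 2 (0.0574), oral KO tumor 1 (0.105), WT pancreatic tumor 1 (0.0633) or 3 (0.0629), or pancreatic KO tumor 2 (0.0675) or 3 (0.0785), and Ppl gained one without WT oral tumor 4 (0.0097) or WT pancreatic tumor 4 (0.0483).

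Pkp2, the plakophilin of heart and simple epithelia, was the least expressed plakophilin, at 3.09 to 6.24 CPM in WT oral, 5.03 and 14.7 CPM in KO oral, 12.8 to 20.3 CPM in WT pancreatic and 8.88 to 14.6 CPM in KO pancreatic tumors. It was called lower in WT oral than in WT pancreatic tumors (-1.98, SE 0.29, adjusted p = 0.0023). Its KO effect was called different between tissues (-1.82, SE 0.55, adjusted p = 0.0442), and without oral KO tumor 2 the call was lost, at -0.84. The call was also lost without WT oral tumor 2 (adjusted p = 0.0722), 3 (0.0699) or 4 (0.0546), WT pancreatic tumor 1 (0.0849), 2 (0.0506) or 3 (0.0833), or pancreatic KO tumor 1 (0.0667), 2 (0.0634) or 3 (0.0969), with differences of -1.97 to -1.64. Dsg1c, the third Dsg1 copy, was at 6.06 to 121 CPM in WT oral and 1.49 to 5.96 CPM in WT pancreatic tumors (3.95, SE 0.87, adjusted p = 0.0134), and shares 39.4% of its 31-base stretches with other genes. Dsg1b was at 70.7 to 239.9 CPM in WT oral and 138 to 334 CPM in WT pancreatic tumors (-0.69, SE 0.41, adjusted p = 0.259), and at 31.2 to 114 CPM in KO pancreatic tumors (-1.55, SE 0.48, adjusted p = 0.184). Perp, a membrane protein that desmosomes need in stratified epithelium, was at 747 to 1729 CPM in WT oral and 1637 to 2428 CPM in WT pancreatic tumors (-0.84, SE 0.27, adjusted p = 0.0497, under the fold threshold). Pkp4 was at 76.9 to 119 CPM in WT oral and 105 to 137 CPM in WT pancreatic tumors (-0.36, SE 0.17, adjusted p = 0.158), and Dsg4, the hair desmoglein, did not exceed 1.47 CPM in any tumor.

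**Figure D5:**
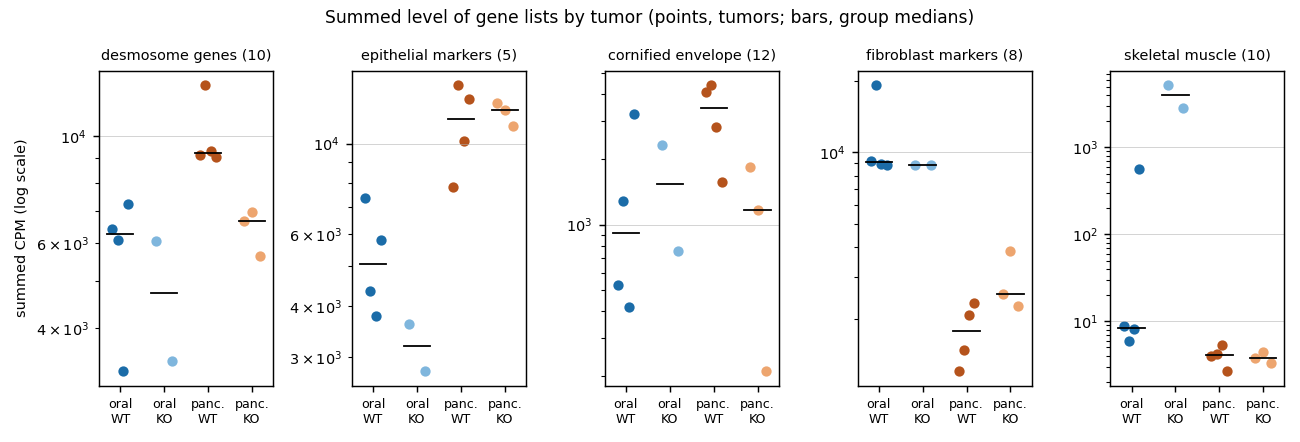
Summed CPM (log scale) of the 10 desmosome genes and of 4 other gene lists in each tumor, by tissue and Sox2 genotype, with points for tumors, bars for group medians and panc. for pancreatic. The desmosome sum is 5648 to 6959 CPM in pancreatic KO and 9042 to 12746 CPM in pancreatic WT tumors. The epithelial markers drawn overlap between those groups. The sums of epithelial regulators, adherens junction genes, suprabasal keratins and other desmosome genes, not drawn, do not. Fibroblast markers are higher in oral tumors, and skeletal muscle genes reach 2880 CPM or more in the oral KO tumors alone.

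Set beside the other junctions, desmosome genes were not alone in being lower in WT oral tumors. Of 9 adherens junction genes 2 were called lower (E-cadherin Cdh1 at -1.57, adjusted p = 0.0120; Nectin4 at -1.37, adjusted p = 0.0209), and of 13 tight junction genes 10 were, with list medians of -0.81 and -1.67, where 7.24% of all genes were called lower and 9.3% higher. Of 6 gap junction genes 2 were called lower, with a list median of -0.85. None of these junction lists had a gene called higher, where the desmosome list had Dsg1a and Dsc1. In pancreatic KO tumors the list medians were -0.20 for adherens, -0.54 for tight and -0.11 for gap junction genes. Those of the 10 desmosome genes and of all genes were -0.72 and 0.022. In both tissues the level pattern of the 10 genes was tracked most closely by Lpar5 (r = 0.93 in 6 oral and 0.97 in 7 pancreatic tumors), Rab11a (0.91 and 0.97), 2010008C14Rik (0.91 and 0.93), Por (0.93 and 0.91) and Dhx32 (0.90 and 0.97), as Pearson r of log2 CPM with the median of the 10 genes after centring within each tissue, chosen as the highest of 15657 genes over tumors that share their libraries. By the same measure Dsg1a, Dsg3 and Dsc1 reached 0.92 or more in both tissues and Dsg2 was at -0.09 and -0.13, but each of these is itself in the median, which fixes part of its r, so the values are not comparable with those of the other genes.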

How the data were processed

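Total RNA from 13 mouse NUT carcinoma tumors was depleted of ribosomal RNA, made into stranded libraries and sequenced. The deposited values are estimated counts per gene that the authors made with Trim Galore 0.6.10, kallisto 0.50.0 in stranded mode on GENCODE M23 transcripts (GRCm38) and tximport 1.28.0. Of the values, 27.3% were not whole, and all were rounded for testing. Rows without values (753) were left out.

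Totals ran from 11735315 to 120482829 estimated counts per tumor. Tests were edgeR 4.0.16 quasi-likelihood fits with TMM scaling in R 4.3.3 on genes with 10 or more counts in 2 or more tumors, within the groups compared (the interaction used all 13), Benjamini-Hochberg adjusted over all genes tested. DESeq2 1.42.0, with and without apeglm 1.24.0, other filters and scalings, a replicate block and leaving out each tumor were alternatives. The sum of the Dsg1 copies was added after seeing the data. The test script was checked on simulated data. CPM used TMM scaling over all tumors, and TPM the exon union of GENCODE M21, since the M23 annotation was not used here.

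The 10 genes and all gene lists were chosen with earlier results of these data known. Genes named are the 10, 8 other desmosome genes, Sox2, the 5 genes most like the 10 and, in each other list, those called or else the 2 with the smallest adjusted p, of which a selection is printed. Tumors with the same number deviated together in some pairs only (r from -0.08 to 0.32), so numbers were not taken as pairs.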

Additional observations from a re-analysis of the deposited data

Results flagged for a closer look

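Of 46 sets of values in groups of 4 tumors, 2 held a tumor far from the others. That is about the number to be expected, since chance gives about 1 in 20. Dsc2 in WT pancreatic tumor 4 (683 CPM, the others 1229.6 to 1305 CPM) had a gap to its nearest neighbour of 0.908 of the group's whole range on the log2 scale. Dsp in WT pancreatic tumor 2 (4747 CPM, the others 3263 to 3369 CPM) had a gap of 0.9147 of the range. The limit for 4 tumors is 0.829.

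By edgeR's interaction term the effect of the Sox2 deletion was called different between tissues for 2 of the 8 other desmosome genes. Over all 25836 genes 4.85% were called higher and 7.41% lower. Both calls were lost in many of the fits that left out 1 tumor, as given above. For Pkp2 the pancreatic effect minus the oral effect was -1.82 (adjusted p = 0.0442), with oral KO tumor 2 at 14.7 CPM and the other oral tumors at 3.09 to 6.24 CPM, and it was -0.84 (adjusted p = 0.318) without that tumor. For Evpl it was -2.53 (adjusted p = 0.0334), the 7 pancreatic tumors being split by genotype (311 to 694 against 122 to 186 CPM) and the oral tumors overlapping (34.5 to 189 against 123 to 198 CPM), and it was -2.11 (adjusted p = 0.105) without oral KO tumor 1.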

How the results depend on the processing

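The number of the 10 genes called in the oral KO comparison was 1 (Dsc3) with DESeq2, with apeglm, with no count filter and with 1 fit of all 13 tumors. In the pancreatic KO comparison it was 3 with DESeq2 and with apeglm, 2 (Dsg1a, adjusted p = 0.0481; Dsc2, 0.0433) with the replicate block, and 0 to 1 leaving out each tumor. In the interaction it was 1 (Dsc2) with DESeq2, with at least 10 counts in every tumor and with the replicate block (-1.79, adjusted p = 0.0422), and 0 to 1 leaving out each tumor. Between KO tumors it was 4 with no count filter and 2 to 6 leaving out each tumor, and between WT tumors 3 to 7. Between WT tumors 5 were called with no count filter, which ended the calls of Dsg1a (adjusted p = 0.0757), Dsc1 (0.119), Ppl (0.0775) and Dsg1c (0.0512), and the block ended those of Dsc1 (0.0712) and Ppl (0.0534). The block and no count filter each ended the interaction calls of Pkp2 (0.0866 and 0.0573) and Evpl (0.0577 and 0.069). The block added calls of Ppl (0.0085) and Evpl (0.014) in the pancreatic KO comparison and of Dsg3 (0.0351) between KO tumors. Causes of these changes were not tested.

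Estimates that changed sign lay near 0 or had wide errors. In the oral KO comparison Pkp3 was at 0.084 with at least 10 counts in every tumor, 0.046 with thinned counts and 0.17 with protein-coding genes only, and with the replicate block Dsc2 was at -0.10 and Dsg4 at 1.90. Dsg4 was at -0.028 in the pancreatic KO comparison with the block, and Pkp3 at 0.073 in the interaction with no count filter. Leaving out each tumor in turn, oral KO estimates ran from -0.11 to 0.86 for Dsc2, -1.34 to 0.15 for Dsg1a, -0.30 to 1.07 for Dsg1b, -0.80 to 0.04 for Dsg3, -0.41 to 0.55 for Jup, -0.86 to 0.11 for Perp, -0.42 to 0.61 for Pkp1 and -0.56 to 0.39 for Pkp3. Pancreatic KO estimates ran from -0.27 to 0.073 for Dsg2, -1.01 to 1.05 for Dsg4 and -0.0013 to 0.12 for Pkp4. Interaction estimates ran from -0.58 to 0.24 for Dsg3, -0.17 to 1.95 for Dsg4, -0.77 to 0.18 for Jup, -0.65 to 0.31 for Perp, -0.73 to 0.29 for Pkp1 and -0.43 to 0.50 for Pkp3, and the median of the 10 from -0.75 to 0.21. Between KO tumors Dsc2 ran from -0.011 to 1.03 and Dsc3 from -0.35 to 0.88, and between WT tumors Dsg2 from -0.064 to 0.38. The log2 ratio differences ran from -0.44 to 0.22 (Dsg1a to Dsg3) and -0.91 to 0.43 (Dsg2 to Dsg3) in the oral KO comparison and from -0.18 to 0.11 (Pkp1 to Pkp3) in the pancreatic one.

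With 2 oral KO tumors, 1 of them at 11735315 counts and 59.5% protein-coding, the oral KO estimates and the interaction rest on few tumors, and leaving out 1 leaves a lone tumor assumed to vary like the other groups.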

Other observations

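Keratins, which desmosomes anchor, did not move as 1 set. Between WT tumors all 4 simple epithelial keratins were called lower in oral tumors (Krt7 -3.43, Krt8 -3.79, Krt18 -1.50 and Krt19 -4.01 on the log2 scale, edgeR). The other classes were mixed. Of 4 basal keratins Krt15 was called higher (2.12) and Krt5 lower (-1.10). Of 10 suprabasal keratins 2 were called higher (Krt76 at 4.37 among them) and 3 lower (Krt4 at -2.88 among them). Over all genes 9.3% were called higher and 7.24% lower. In pancreatic KO tumors 2 of 9 suprabasal keratins tested were called lower, Krt4 (-3.46, adjusted p = 0.0026) and Krt13 (-3.69, adjusted p = 0.0163), and of 12 cornified envelope genes Scel was (-1.90, adjusted p = 0.037), the other 11 also having estimates below 0 (0.292% of all genes were called lower). In oral KO tumors Krt4 was called higher (2.08, adjusted p = 0.0268) and Krt15 lower (-3.11, adjusted p = 0.0398), against 8.81% and 2.89% of all genes. The difference between tissues in the KO effect was called below 0 for the keratins Krt4 (-5.46, adjusted p = 0.000462) and Krt13 (-5.14, adjusted p = 0.0037) and the cornified envelope genes Lor (-6.20, adjusted p = 0.0237), Sprr3 (-5.17, adjusted p = 0.0201) and Cnfn (-5.24, adjusted p = 0.0308), and above 0 for Krt5 (1.33, adjusted p = 0.0234), against 7.41% and 4.85% of all genes.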
